A study of Mus musculus with 2 samples.

Results

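The type II hair keratins are the basic keratins of the hair shaft, and 7 mouse genes of this family were looked up: Krt81, Krt82, Krt83, Krt84, Krt85, Krt86 and Krt87. A gene was taken in where the platform annotation gave a probe set its symbol and no other. That held for 5 of the 7, with 1 probe set each, out of 18193 genes named in this way on the array. Krt85 and Krt87 were under no such probe set and were not analysed here. The family was chosen by function, but with the signals of Krt84 on these same arrays known, so that its ratio is a description and supports nothing further.

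The samples were hair follicles of mice at postnatal day 10. Follicles of mice transgenic for dnFGFR2-IIIb, a dominant-negative form of the epithelial splice variant of fibroblast growth factor receptor 2 (FGFR2), were set against follicles of wild-type mice. Each group was 1 Affymetrix array, hybridised with total RNA of about 300 follicles that came in about equal parts from 3 mice of different litters. The sources used here do not name the promoter of the transgene or the strain. With 1 array per group there was no replicate spread and no test, and pooling hides the differences between mice.

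Keratins of type I and type II pair with each other and assemble into the intermediate filaments of epithelial cells. Hair keratins are a cysteine-rich branch of both types, made by the cells that leave the hair matrix and harden into cortex and cuticle, where keratin-associated proteins cross-link them through disulphide bonds. FGFR2-IIIb is the receptor through which epithelial cells respond to FGF7 and FGF10, growth factors made by the mesenchyme.

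Among the type II hair keratins, Krt84 read far lower on the transgenic array, while the 4 other measured members read nearly alike on both. Krt84 encodes a hair-type keratin that in humans is best known from the filiform papillae of the tongue. Its probe set, 1451551_at, read 29.4 in transgenic follicles and 619 in wild-type follicles, in arbitrary units of linear signal. The ratio was 21.1-fold lower, a log2 ratio (transgenic over wild type) of -4.40, so that 4.75% of the wild-type signal was left. The signal on the transgenic array was 2.80 times a floor of 10.5, the 40th percentile of all signals, which served as the limit of what was called measured. The brightest control probe set without a mouse target read 15.8 in transgenic follicles and 8.5 in wild-type follicles. The transgenic signal of Krt84 thus lay above both limits, though within the dim range of that array.

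Krt81, Krt83 and Krt86 are keratins that in humans mark the hair cortex, and inherited defects in them cause the beaded hair of monilethrix. Krt81 read 9662 in transgenic follicles and 9847 in wild-type follicles, a log2 ratio of -0.03. Krt83 read 8343 in transgenic follicles and 8049 in wild-type follicles, a log2 ratio of 0.05. Krt86 read 7796 in transgenic follicles and 7298 in wild-type follicles, a log2 ratio of 0.10. The paired signals of each cortex keratin lay close together. Krt82, which in humans marks the hair cuticle, read 2155 in transgenic follicles and 2000.1 in wild-type follicles, a log2 ratio of 0.11. The plot of member signals shows Krt84 as the single member whose points part. Brightness differs between probe sets for reasons of probe sequence, so the signals do not rank these genes by RNA level.

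**Figure D1:**
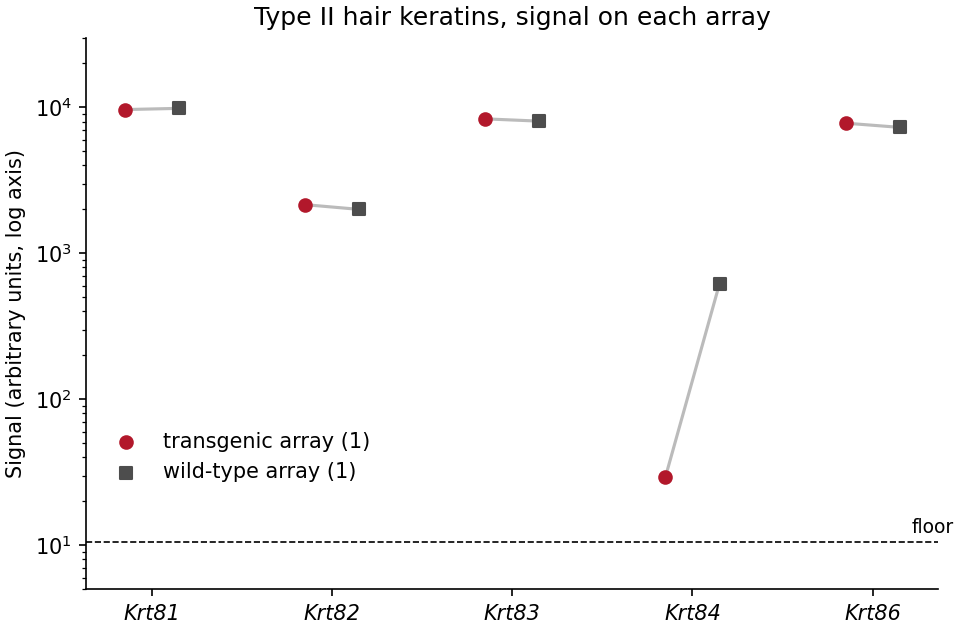
Signal (arbitrary units, log axis) of each type II hair keratin probe set on the transgenic array (red circles) and the wild-type array (grey squares), 1 array each, with the floor of 10.5 as a dashed line. Krt84 reads 29.4 in transgenic follicles and 619 in wild-type follicles, while the paired points of the other 4 members lie side by side.

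No member has a further probe set under its own symbol, so no ratio above has a second reading within its array. The spread between probe sets of the same gene stands in for technical error here. Among probe sets with a mean signal above 2000, the SD of log2 ratios within a gene was 0.12 (105 genes), and the 4 bright members lay within that distance of 0. Among genes whose brightest probe set had a mean signal above 238, which take in Krt84 with its mean signal of 324, the SD was 0.36. Krt84 enters that class through its wild-type signal, while its transgenic signal of 29.4 was dim. Among genes whose brightest probe set had a mean signal of at most 64.5, the SD was 0.52. Krt84 was taken up with its ratio known, so setting that ratio against these SDs supports nothing. The SDs leave out every difference between mice, and none of these values says how far 2 wild-type pools would differ.

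The members' count was read against all genes. Of 11565 genes with both signals above the floor, 1.58% were at least 2-fold lower and 1.60% at least 2-fold higher on the transgenic array, 183 and 185 genes. This split depended on the scaling, with 296 lower and 115 higher at equal medians and 103 lower and 314 higher at equal spiked controls. Of the 5 members, 1 was 2-fold lower and 0 were 2-fold higher. Krt84 had the lowest ratio of all 11565 genes, followed by the stefin gene Stfa2l1 at 12.8-fold lower, and this ratio is part of why the family was taken up. Among 2295 genes whose wild-type signal lay within 2-fold of that of Krt84, 0.523% were at least 2-fold lower, 12 genes with Krt84 among them. The middle 90% of log2 ratios in that group ran from -0.44 to 0.34. The group was matched on the wild-type array alone, where Krt84 is high. Its range is therefore not that of genes as dim as Krt84 on the transgenic array.

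For the bright members the matching range was narrower. Among 460 genes with a mean signal above 2000, 1.52% differed by 2-fold in either direction, and the middle 90% of their log2 ratios ran from -0.35 to 0.22, around a median of -0.03. The ratios of Krt81, Krt82, Krt83 and Krt86, from -0.03 to 0.11, all fell inside it. Whether such bright signals compress ratios was not tested, so a ratio near 1 may understate a difference. The plot of ratio against signal places Krt84 as the lowest point, with other genes at its brightness also below the cloud.

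**Figure D2:**
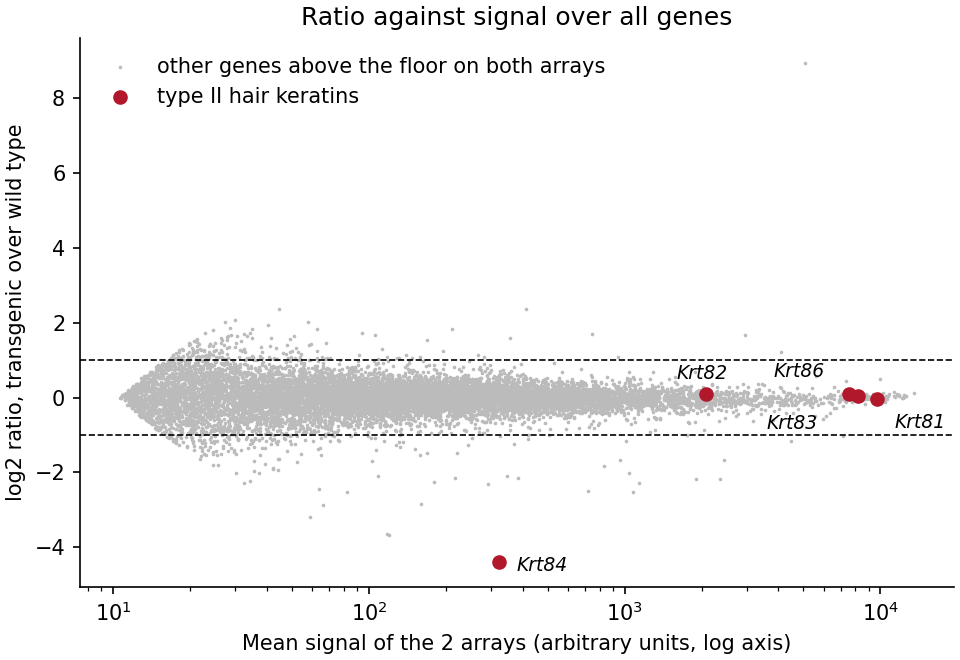
Log2 ratio (transgenic over wild type) against the mean signal of the arrays (arbitrary units, log axis) for 11565 genes with both signals above the floor (grey) and the 5 type II hair keratins (red), with dashed lines at 2-fold. Krt84 lies at -4.40, and the other 4 lie between -0.03 and 0.11 at the bright end.

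In the mouse, the type II keratin genes lie next to each other on chromosome 15. In the order of the RefSeq gene table (GRCm38.p6), the genes before Krt84 are Krt81, Krt86, Krt83 and the pseudogene Gm6042, and those after it are Krt82, Krt90, Krt75 and the pseudogene Gm5476, where Krt90 and both pseudogenes had no probe set under their symbol. Krt84 therefore lies among hair keratins whose ratios were near 1, with Krt83 and Krt82 as its nearest measured neighbours. Krt75, a keratin of the companion layer and medulla, read 3649 in transgenic follicles and 4892 in wild-type follicles (log2 ratio -0.42). Krt88, which lies further out beside Krt81 and is no member, was dim, at 16.7 in transgenic follicles and 23.7 in wild-type follicles. Of 26 keratin genes counted from Krt80 to Krt8, 17 had both signals above the floor, and 1 of these, Krt84, was 2-fold lower. In the same stretch 1 was 2-fold higher: the epidermal keratin Krt77, at 63.8 in transgenic follicles and 16.6 in wild-type follicles (log2 ratio 1.94). Over all genes 1.58% were lower and 1.60% higher. The wild-type signal of Krt77 lay near the floor, and Krt77 was not called with a floor at the 60th percentile.

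**Figure D3:**
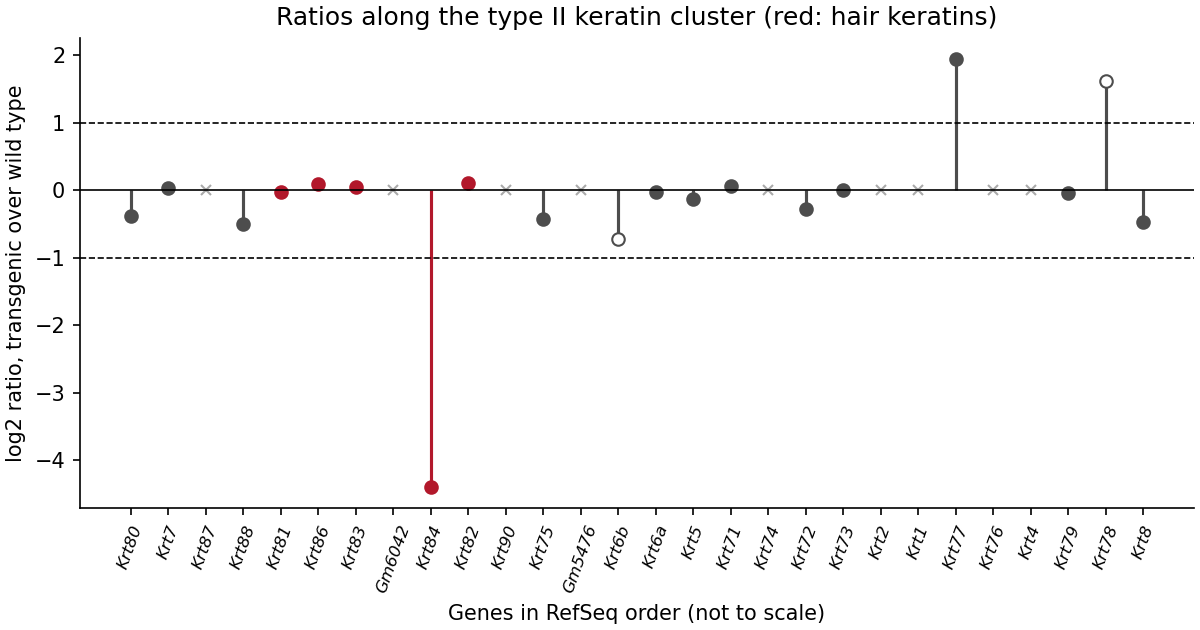
Log2 ratio (transgenic over wild type) of the genes of the type II keratin cluster in RefSeq order, evenly spaced, with hair keratins in red, bounds as open circles, and crosses for genes with no probe set or with both signals under the floor. Krt84 stands at -4.40 between Krt83 at 0.05 and Krt82 at 0.11.

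The promoters of Krt84 and of its neighbour Krt82 are shown because the genes lie side by side and read so differently. RefSeq promoter windows of build GRCm38.p6 were at hand for both of them. The 250 bases before the start of each gene are printed 5′ to 3′ on the minus strand, from chr15:101532821-101533070 for Krt84 and chr15:101550660-101550909 for Krt82. Capitals mark the longest stretch that they share.
Krt84: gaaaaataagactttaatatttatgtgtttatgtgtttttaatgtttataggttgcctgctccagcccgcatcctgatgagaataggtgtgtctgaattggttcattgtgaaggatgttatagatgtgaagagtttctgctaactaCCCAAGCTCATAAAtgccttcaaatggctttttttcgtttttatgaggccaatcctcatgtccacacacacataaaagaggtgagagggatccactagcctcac
Krt82: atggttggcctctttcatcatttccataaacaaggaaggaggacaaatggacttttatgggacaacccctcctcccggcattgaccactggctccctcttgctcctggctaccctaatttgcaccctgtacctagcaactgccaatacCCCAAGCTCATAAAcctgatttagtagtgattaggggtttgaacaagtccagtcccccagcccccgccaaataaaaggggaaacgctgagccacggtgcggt

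The shared stretch is 14 bases long and lies at almost the same place, from 104 to 91 bases before the start of Krt84 and from 102 to 89 before that of Krt82. Of 32851 promoter windows in the table, searched over the same 250 bases on both strands, 2 hold it, those of Krt84 and Krt82. The stretch was picked after the sequences were seen. It contains a match to the published binding consensus of HOXC13, a homeobox factor known in humans to bind hair keratin promoters. That consensus was also taken up after the sequences were seen, and reads TTAAT or TTTAT, then any base, then a pair of purines. It occurs on either strand in 17.2% of all windows and in 8 of the 9 hair keratin windows in the table, those of both types. Krt84 and Krt82 hold 3 matches each.

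Of the other motifs searched on both strands, TATAAA, a form of the TATA box, is in the Krt84 window only on the opposite strand. It lies there from 206 to 201 bases before the start and overlaps a HOXC13 match, and it is not in the Krt82 window. TATAAA is in 12.4% of all windows and in 6 of the 9 hair keratin windows. Only these exact letters were searched, so the search does not tell whether the promoters differ in a TATA box. Both printed windows hold ATAAAAG near their right end. CTTTGA, the core bound by LEF1 and TCF factors, is in 13.8% of all windows and in 5 of the 9 hair keratin windows. GACGC, the core bound by FOXN1, is in 22.6% of all windows and in 1 of the 9. Neither core is in the windows of Krt84 and Krt82. These are matches of letters, and no binding was measured.

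The regulators themselves are part of a list of 24 transcription factors and receptors known for hair shaft differentiation, of which 22 were measured. HOXC13 is encoded by Hoxc13, which read 767 in transgenic follicles and 655 in wild-type follicles (log2 ratio 0.23). Foxn1, a factor of the differentiating shaft, read 775 in transgenic follicles and 759 in wild-type follicles at its brighter probe set (0.03). Lef1, a mediator of Wnt signalling in the matrix, read 425 in transgenic follicles and 362 in wild-type follicles (0.23), and its dimmer probe set gave 0.62. Msx2, a homeobox factor of the matrix, read 1430.2 in transgenic follicles and 1412 in wild-type follicles (0.02). None of these regulators differed by 2-fold.

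Across the list, 1 factor was 2-fold lower on both measured signals and 0 were 2-fold higher, beside 1.58% and 1.60% of all genes. The lower factor was Runx3, a Runt-domain transcription factor, at 13.2 in transgenic follicles and 35.9 in wild-type follicles. That transgenic signal lay near the floor and below the brightest control without a mouse target, 15.8 on that array. The other Runx3 probe set was under the floor on both arrays. Barx2, a homeobox factor, read 1.4 in transgenic follicles, which is below the floor, and 40.5 in wild-type follicles, at least 3.86-fold lower. The median log2 ratio of the list was 0.03, beside 0.01 over all genes above the floor on at least 1 array. The highest ratio was that of Sox21, a Sox-family factor of the hair shaft cuticle, at 0.45. These values rest on the brightest probe set of each gene, and those of Nfatc1 disagreed in direction. Its brightest gave a log2 ratio of -0.80. A dimmer one gave 1.25, with 31.5 in transgenic follicles and 13.2 in wild-type follicles.

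The partners of the type II members are the type I hair keratins, which supply the acidic chain of each filament. Of 7 measured, 0 were 2-fold lower or higher, and the median log2 ratio was 0.07. Over all genes 1.58% were lower and 1.60% higher, so a count of 0 among 7 genes says little. The ratios ran from -0.22 for Krt32, a cuticle keratin that read 3028 in transgenic follicles and 3535 in wild-type follicles, to 0.27 for Krt35, a keratin of matrix and cuticle that read 7241 in transgenic follicles and 5999 in wild-type follicles. With Krt84 left out, the 4 type II members had a median of 0.07 as well. Krt84, taken up with its ratio known, was the only one of the 12 measured hair keratins of both types to differ by 2-fold.

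Type II keratins outside the shaft were compared next. The inner root sheath keratins Krt71, Krt72 and Krt73 and the companion layer keratin Krt75 had log2 ratios from -0.42 to 0.06, with 0 of 4 differing by 2-fold. Of 14 type II epithelial keratins on the array, 9 were above the floor on at least 1 array, and of the 7 above it on both, 0 were 2-fold lower and Krt77 was 2-fold higher. Krt78, an epidermal keratin, was at least 3.08-fold higher, with 32.3 in transgenic follicles and 10.1, below the floor, in wild-type follicles. Among 36 keratin-associated proteins above the floor, 3 were at least 2-fold lower and 3 at least 2-fold higher, beside 1.58% and 1.60% of all genes. Both counts were a larger part of this list than of all genes. The lower genes were Krtap19-1, Krtap19-2 and Krtap19-4, all of the Krtap19 subfamily, and the higher ones were Krtap21-1, Krtap5-2 and Krtap6-3. Among all genes with a mean signal above 2000, 1.52% differed by 2-fold in either direction. Those genes include all the Krtap genes just named but Krtap5-2, so that share is no separate background for this list. The median of the list was -0.03, with extremes of -1.68 for Krtap19-1 and 1.68 for Krtap6-3. Their dimmer probe sets gave 0.37 for Krtap19-1, the other direction, and 1.41 for Krtap6-3. The plot of lists shows Krt84 as the lowest point of all of them.

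**Figure D4:**
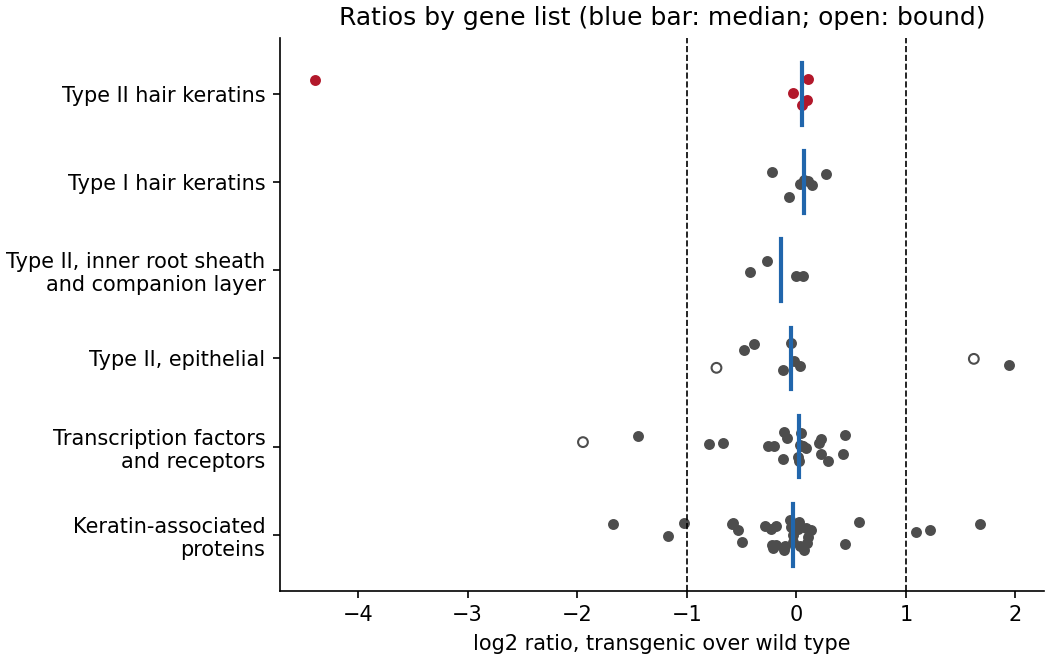
Log2 ratio (transgenic over wild type) of each gene above the floor on at least 1 array, by list, with medians as blue bars, bounds as open circles and dashed lines at 2-fold. Krt84 at -4.40 is the lowest point, and the other type II hair keratins lie beside the type I hair keratins, whose ratios run from -0.22 to 0.27.

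The genes whose signals on the arrays came closest to those of Krt84 were found by Euclidean distance over the pair of log2 signals. They were Aldh1a3, S100a9, Tm4sf4, Stfa2l1 and Lce3c, at distances from 1.21 to 1.69. Aldh1a3, which makes retinoic acid, read 39.1 in transgenic follicles and 281 in wild-type follicles, and its other probe set with both signals above the floor gave a log2 ratio of -1.78. Tm4sf4, a tetraspanin-like membrane protein gene, read 80.4 in transgenic follicles and 354 in wild-type follicles. S100a9, a calcium-binding protein gene of stressed epidermis and myeloid cells, read 62.0 in transgenic follicles and 298 in wild-type follicles. Lce3c, a cornified envelope gene of a family with similar sequences, and Stfa2l1 read under 20 on the transgenic array. With 1 array per group this likeness covers a single contrast and depends on the brightness of each probe set.

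Markers of the cells that a follicle preparation can hold were read beside Krt84. Over all genes 1.58% were 2-fold lower and 1.60% higher, so a count of 0 in a short list says little. Markers of cortex, cuticle and inner root sheath, the cells of the labelled tissue, were above the floor on both arrays wherever they had a probe set, and their lists had median log2 ratios of 0.06, 0.09 and 0.003 and no gene that differed by 2-fold. In a list of 8 further keratins of claw, nail and tongue papilla, Krt13, Krt4 and Krt76 were under the floor on both arrays, and the summed signal was 6484 in transgenic follicles and 7603 in wild-type follicles. Of the 4 with both signals above the floor, 0 were 2-fold apart. The fifth, Krt6b, read 1.1 in transgenic follicles, which is below the floor, and 17.4 in wild-type follicles, at least 1.66-fold lower. Krt36, a type I hair keratin of that list, read 848 in transgenic follicles and 786 in wild-type follicles, the 1 ratio above 1 there. The other 4 ratios were below 1, and the list had a median log2 ratio of -0.45.

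The 11 suprabasal epidermis markers summed to 11097 in transgenic follicles and 14814 in wild-type follicles, and Krt1, Krt2 and Flg were under the floor on both. In that list 3 genes were 2-fold lower, Lce3c, Sprr1b and Ivl. Krt77 was 2-fold higher, and Krt78 was at least 3.08-fold higher as a bound. Beside these counts, and those of the lists below, stand 1.58% lower and 1.60% higher over all genes. Of the 8 above the floor on at least 1 array, 5 had ratios above 1 and 3 below, and the median log2 ratio was 0.31. The 4 outer root sheath and basal markers summed to 11318 in transgenic follicles and 13496 in wild-type follicles, all with ratios below 1. The 5 melanocyte markers summed to 11993 in transgenic follicles and 13109 in wild-type follicles. In the 3 remaining lists, as in the suprabasal list, most ratios were above 1. Of 7 medulla markers, 6 had ratios above 1 around a median log2 ratio of 0.03, and 1 was 2-fold higher, Igfbp5, an insulin-like growth factor binding protein gene, at 688 in transgenic follicles and 134.5 in wild-type follicles. Its dimmer probe set gave a log2 ratio of 0.36, and the summed medulla signal was 37628 in transgenic follicles and 37709.6 in wild-type follicles. The brightest medulla markers, Krt25, Krt27 and Tchh, are also in the inner root sheath list, so these lists are not separate readings. Krt17 is likewise in both the claw, nail and tongue list and the outer root sheath list. The 5 dermal papilla markers were dim and summed to 141 in transgenic follicles and 106 in wild-type follicles, with Sox2 under the floor on both. Their median was 0.41 over the 4 above the floor on at least 1 array, and Rspo3, a Wnt signalling enhancer, was 2-fold higher at 34.9 in transgenic follicles and 14.7 in wild-type follicles. The 3 fibroblast markers all had ratios above 1, with a median of 0.34 and sums of 1269 in transgenic follicles and 1047 in wild-type follicles. The part of all these cells in the ratio of Krt84 was not tested, and in pooled tissue fewer cells that make Krt84 and less Krt84 RNA per cell cannot be told apart.

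The arrays also differed in ways that run with genotype. Xist, transcribed from the inactive X chromosome, read 1146 in transgenic follicles and 352 in wild-type follicles, and the Y-linked gene Eif2s3y read below the floor in transgenic follicles and 191 in wild-type follicles. By these genes the pools differed in sex, which cannot be told apart from genotype. Both genes were chosen after their values were seen. The ratio of 3′ to 5′ signal was 2.06 in transgenic follicles and 1.89 in wild-type follicles for Actb. Each array ran on its own fluidics module, which cannot be told apart from genotype. The brighter Fgfr2 probe set read 368 in transgenic follicles and 197 in wild-type follicles, and whether it matches the transgene is not known here. None of these was tested for a part in the result.

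The ratio of Krt84 kept its direction under the main setting and 9 other scalings and floors. It ran from 23.2-fold lower with equal medians to 18.4-fold lower with equal spiked controls where both signals counted as measured without a pseudocount. With a fixed floor of 50 the transgenic signal fell under the floor, and the ratio became a bound of at least 12.4-fold lower. The signs of the other members were not stable, since all 4 ratios were below 1 with equal medians and above 1 with equal spiked controls. Over all genes the median log2 ratio was -0.13 with equal medians and 0.19 with equal spiked controls, and the 4 members moved the same way. The plot of settings shows the gap between Krt84 and the other members under every one of them.

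**Figure D5:**
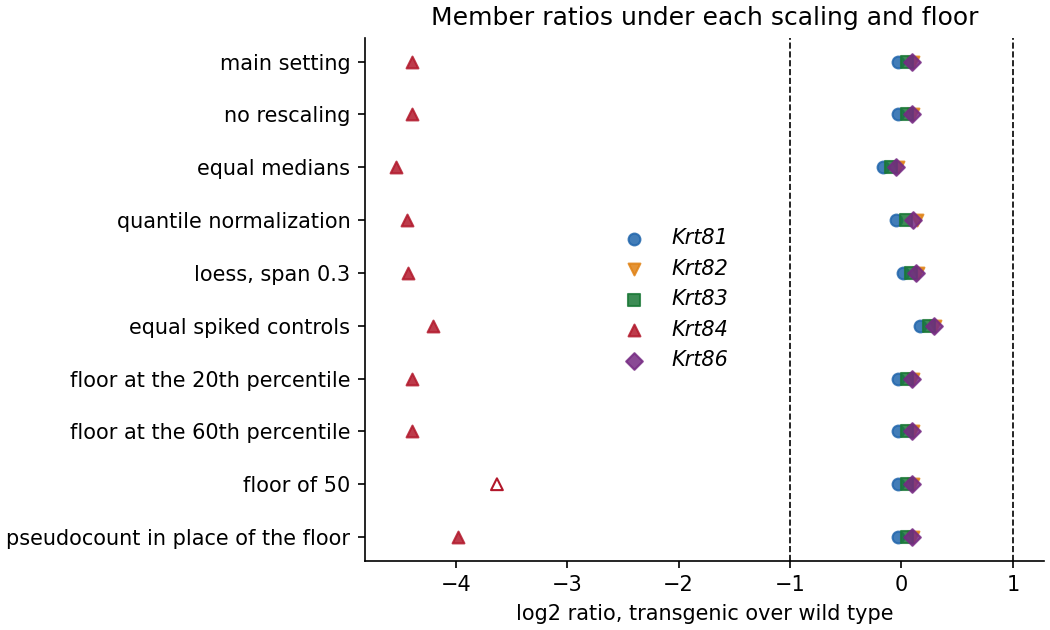
Log2 ratio (transgenic over wild type) of the 5 type II hair keratins under the main setting and 9 other scalings and floors, with dashed lines at 2-fold and the bound for Krt84 at a floor of 50 as an open triangle. Krt84 lies between -4.54 and -3.63, and the other 4 lie between -0.17 and 0.30.

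Names within the family are not fully settled in the annotation. The RefSeq table gives Krt83 and Krt86 a synonym in common, lists Krt83 among the synonyms of Krt87, and lists Krt86 among those of Krt1. The Krt82 probe set, 1427719_s_at, is of a kind that can match several transcripts. Type II hair keratins are similar in sequence, and how far the probe sets of Krt81, Krt83 and Krt86 share signal was not tested, so their values may not be independent of each other.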

How the data were processed

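Total RNA of pooled hair follicles was hybridised to Affymetrix Mouse430_2 arrays, per the labels' protocols and the file headers, 1 array per group. The deposited values are linear intensity per probe set, scaled by the authors to a 2% trimmed mean of 100 on each array, as the values show. The summary algorithm is not given in the sources used here, and global scaling makes each ratio relative to the bulk of transcripts. Of 45101 probe sets, 64 controls were left out of comparisons. Of the remaining 45037, 34945 had 1 gene symbol in the platform annotation, 932 several and 9160 none.

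Both arrays were rescaled to equal 2% trimmed means of non-control probe sets, which left the values nearly as deposited. Signals below the 40th percentile of both arrays, 10.5, were set to that floor. The brightest probe set by mean signal stood for a gene. A gene was called lower or higher when both signals passed the floor and differed at least 2-fold. Ratios with 1 signal under the floor are bounds. Without replicates, no test was run. The number of arrays limits the precision.

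The members, gene lists and motifs were chosen with earlier results of these data known. The genes named by rule are the members, Fgfr2, the 5 genes nearest to Krt84, the lowest and highest of each list and the 4 genes on each side of Krt84. Any other gene named with a value, such as Hoxc13, Foxn1, Lef1, Msx2, Krt36 or Xist, was chosen after its values were seen. Python 3.11.15 with numpy 2.4.6, pandas 2.3.3 and statsmodels 0.14.6 was used, and the rules were tested on simulated data. The alternatives were other scalings, floors, fold thresholds, probe set choices and a pseudocount.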

Additional observations from a re-analysis of the deposited data

How the results depend on the processing

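Scalings, floors, fold thresholds and choices of probe set were varied 1 at a time. The log2 ratio of Krt84 was -3.98 with a pseudocount of the floor's size and a bound of -3.63 with a floor of 50, and under that floor the count of members 2-fold lower was 0 because the bound is counted apart. Over all genes the counts of lower and higher genes were 296 and 115 with equal medians, 103 and 314 with equal spiked controls, 685 and 845 with a floor at the 20th percentile, 61 and 50 at the 60th percentile, 37 and 22 with a floor of 50, and 377 and 478 with a pseudocount. They were 784 and 735 at 1.5-fold and 40 and 27 at 3-fold, and 103 genes were higher with the mean over probe sets. Higher type II epithelial keratins numbered 2 with equal medians, quantile normalization, a floor at the 20th percentile or a pseudocount, and 0 with a floor at the 60th percentile or of 50, and 1 was lower with a pseudocount. Lower transcription factors numbered 0 with a floor at the 60th percentile or of 50 and with the mean over probe sets, and 1 keratin-associated protein was lower with equal spiked controls. A higher floor tests fewer genes by construction, and for the other settings the cause was not tested. No paired analysis was possible because each group holds 1 array. Signals near the floor, the transgenic signal of Krt84 included, are the least certain.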
